A study of Caenorhabditis elegans with 12 samples.

Results

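Old adults of the long-lived daf-2 mutant were compared with young adults of wild type, to ask which features of old daf-2 animals lay at the young wild-type level and which lay away from it. The old group was strain CF1041, genotype daf-2(e1370), at day 9 of adulthood, with 3 libraries. The young group was strain N2, wild type, at day 1 of adulthood, with 3 libraries. These 6 libraries were chosen by their labels from the 12 of the series. The other 6, wild type at day 9 and daf-2 at day 1, served for reference. All 4 groups were whole animals kept on OP50 bacteria and given FUdR, a blocker of DNA synthesis that stops progeny from developing, so the young animals carried this drug as well. Age and genotype both differed between the groups compared. Their parts in any difference below cannot be told apart by that comparison. The mutant is 1 allele in 1 strain and acts in every tissue, and each library pooled whole animals, so fewer cells of a type and less RNA per cell cannot be told apart either.

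DAF-2 is the worm's receptor for insulin-like peptides. When it is active, a kinase cascade through AGE-1 (PI3 kinase), PDK-1 and the AKT kinases holds the FOXO transcription factor DAF-16 in the cytoplasm. When it is weakened, DAF-16 enters the nucleus and raises genes for stress resistance, metabolism and defence, with help from the heat shock factor HSF-1, and the animals live longer. Defence against bacteria in the intestine also runs through the p38 kinase PMK-1, whose output is known to decline as worms age.

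The young wild-type libraries held 21406233, 20322128 and 32116409 counts, and the old daf-2 libraries held 20991940, 47447136 and 45563330. Of 46778 genes listed, 15523 had enough counts to be tested. Levels are given as CPM, which sets every library to the same total after a correction for composition, and differences as log2 of old daf-2 over young wild type ± SE. A gene was called when its adjusted p from edgeR's quasi-likelihood test was under 0.05. A gene counted as within 2-fold when the 95% interval of its difference lay wholly inside a 2-fold change either way. The daf-2 transcript itself (chromosome III, 2994514 to 3040846) was at 109, 110 and 87.3 CPM in young wild type and at 135, 150 and 182 CPM in old daf-2, 0.61 ± 0.14 higher (adjusted p = 0.0035) and within 2-fold. The e1370 allele changes an amino acid of the receptor, so the level of the mRNA does not check the genotype labels.

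Over all tested genes, old daf-2 animals were about as far from young wild type as old wild-type animals were. The median absolute difference in log2 CPM between a young wild-type library and an old daf-2 library was 0.553 to 0.752 over the 9 pairs (median 0.609). Against old wild-type libraries the same measure was 0.588 to 0.751 (median 0.63), and these ranges overlap. Old daf-2 libraries were much nearer to old wild type (0.268 to 0.331) than to young wild type, with no overlap between these ranges. Libraries of 1 group differed from each other by 0.274 to 0.323 in young wild type and by 0.204 to 0.227 in old daf-2.

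**Figure D1:**
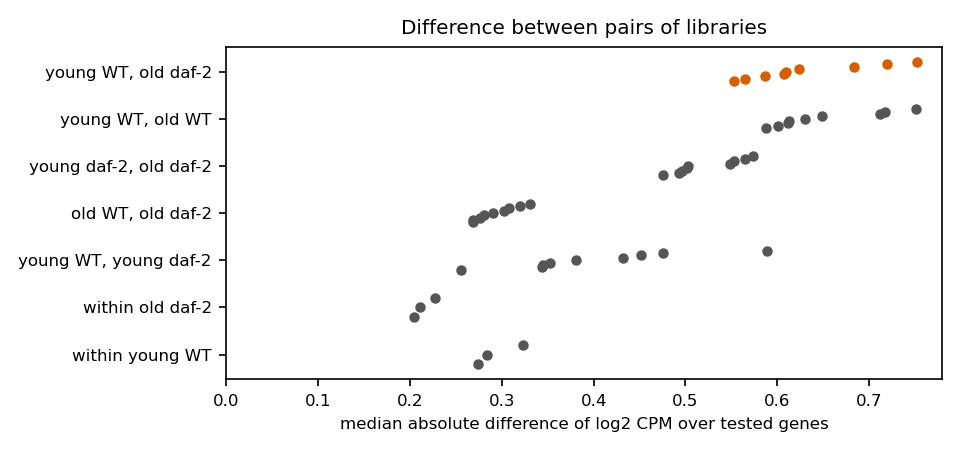
Median absolute difference in log2 CPM over 15523 genes (horizontal axis, log2 units) for each pair of libraries, 1 point a pair, by the groups of the pair (rows). Pairs of young wild type with old daf-2 (orange) lie between 0.553 and 0.752, in the range of pairs of young with old wild type, while pairs of old wild type with old daf-2 lie at 0.331 or below.

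Of the 15523 tested genes, 4319 (27.8%) were higher and 3810 (24.5%) were lower in old daf-2 than in young wild type. At least 2-fold changes were found for 2912 higher and 1392 lower genes, and at least 10-fold changes for 431 and 227. On the other side, 6607 genes (42.6%) were within 2-fold, of which 4214 were not called and 2393 were called with small differences. The remaining 3180 genes were neither called nor shown to be within 2-fold, so these libraries do not place them. The balance between higher and lower genes depended on the scaling. Higher genes were 53.1% of calls with the composition scaling used here (TMM), 64% with upper-quartile scaling and 79.2% with library totals only, because the median difference of all genes, 0.09 here, moved by 0.15 and 0.38 under those settings. Directions of modest size below are therefore relative to that median.

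Highly expressed genes were shown to match most often. Genes with a mean under 1 CPM were within 2-fold in 2.6% of cases, those from 1 to 10 CPM in 24%, those from 10 to 100 CPM in 66.2% and those above 100 CPM in 73.6%. Calls shifted with level too. Among genes under 1 CPM 32% were higher and 7.09% lower, while among genes above 100 CPM 15.2% were higher and 40.7% lower. From 1 to 10 CPM 36.2% were higher and 14.7% lower, and from 10 to 100 CPM 23.3% and 35.4%. Counts of list members below are to be read against the shares at their level. By chromosome, genes of chromosome V were higher in 31.5% of cases against 26% on chromosome I, and 11 of the 14 tested genes of the mitochondrial genome were lower. Annotated pseudogenes were higher in 40.1% of 579 cases and lower in 11.7%, against 27.8% and 24.5% of all genes, with a median difference of 0.65. They were not compared with other genes of the same level, and weakly expressed genes in general were more often higher than lower.

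The groups not used in that comparison form its mirror image, young daf-2 against old wild type, which shares no library with it. By arithmetic, a gene has the same sign in both comparisons where its difference between genotypes, averaged over both ages, is larger in size than its change with age, averaged over both genotypes, and opposite signs where the change with age is the larger. A gene can thus differ between genotypes at both ages and still have opposite signs, as did fipr-24, which was 2.85 higher in daf-2 at day 1 and 1.64 higher at day 9, yet was at 7.10 here and at -2.61 in the mirror comparison. In young daf-2 against old wild type, 3958 genes (25.5%) were higher and 3997 (25.7%) were lower. Opposite signs were more frequent. Of the genes higher in old daf-2, 2281 were lower in young daf-2 than in old wild type, 52.8% of the former list and 57.1% of the latter. Of the genes lower in old daf-2, 2360 were higher in young daf-2, 61.9% and 59.6% of the lists. The same sign was found for 334 genes higher in both (7.73% and 8.44%) and 150 genes lower in both (3.94% and 3.75%). A further 1704 higher and 1300 lower genes of old daf-2 were not called in the mirror comparison.

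**Figure D2:**
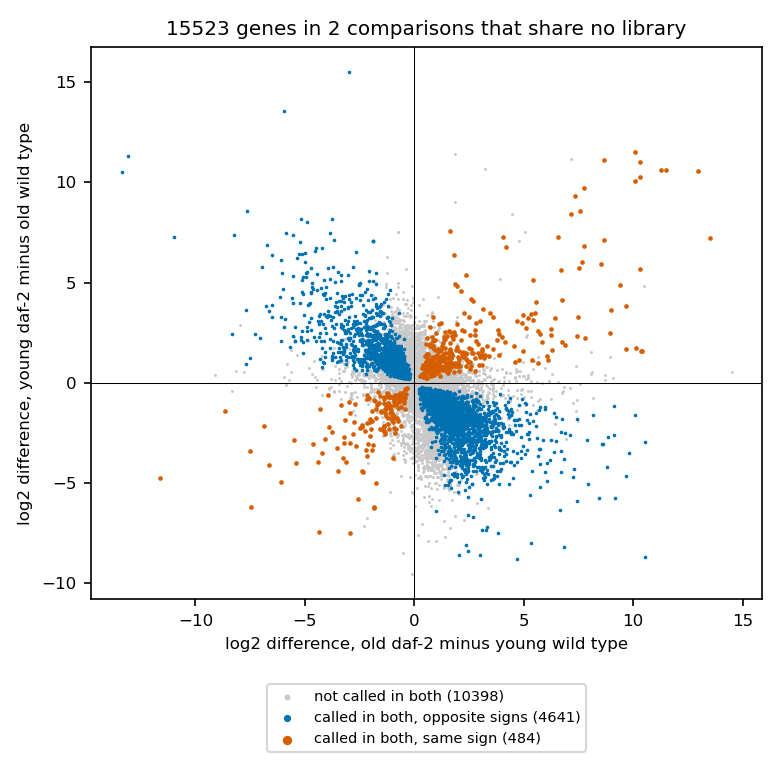
Log2 difference of old daf-2 minus young wild type (horizontal axis) against young daf-2 minus old wild type (vertical axis), 1 point for each of 15523 genes. Genes called in both with opposite signs (blue, 4641) fill the upper left and lower right, and 484 genes called in both with the same sign (orange) lie in the other quadrants.

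Among the named genes, some differed in the same direction at both ages. Higher in daf-2 at both ages were cpr-2, a cathepsin B-like protease gene, icmt-1, named for isoprenylcysteine methyltransferase, the saposin-like spp-20, dod-6, a gene known to lie downstream of DAF-16, and pqn-73. For dod-6 (III, 10197716 to 10198352) the young wild-type libraries held 8.02, 4.38 and 8.85 CPM and the old daf-2 libraries 354, 277 and 600 CPM, with 60.4, 42 and 64.2 CPM in old wild type and 230, 245 and 210 CPM in young daf-2. Both daf-2 groups thus lay above both wild-type groups without overlap. The differences were 5.84 ± 0.34 (adjusted p = 1.5e-07) and, in the mirror comparison, 2.04 (adjusted p = 0.00013). For cpr-2 (V, 16532936 to 16534100), young wild type had 0.208, 0.3 and 0.0342 CPM and old daf-2 had 270, 107 and 239 CPM (10.33 ± 1.01). Lower in daf-2 at both ages were ilys-5, the C-type lectins clec-10 and clec-218, the protease gene cpr-5 and dod-24. The lectin clec-10 (II, 402678 to 404180) had 13.9, 17.1 and 11.3 CPM in young and 11, 13.1 and 9.72 CPM in old wild type, against 0.04, 0.0901 and 0.0829 CPM in old daf-2 and 0.0825, 0.263 and 0.129 CPM in young daf-2. Its level was near 0 in all 6 daf-2 libraries at both ages. The F-box gene fbxa-189 (V, 17345214 to 17347781) showed the reverse: 5 of 6 wild-type libraries were at 0 and the other at 0.06 CPM, while old daf-2 had 7.59, 7.9 and 8.75 CPM and young daf-2 had 11.1, 11.6 and 7.5 CPM.

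Known targets of DAF-16 were the group that lay furthest above the young wild-type level apart from the pals genes described below. Of 25 listed, 24 were tested, and 19 were higher and 1 lower in old daf-2, against 27.8% and 24.5% of all genes, with a median difference of 3.07 against 0.09 over all genes. The list holds genes chosen in the literature because daf-2 mutants express them more, so its direction was known beforehand. The metallothionein gene mtl-1 (V, 6691371 to 6691863), which encodes a metal-binding protein, was at 1.61, 3.48 and 8.89 CPM in young wild type and at 617, 850 and 941 CPM in old daf-2. Its level was 38.7 to 81.4 CPM in old wild type and 71.4 to 125 CPM in young daf-2, so old daf-2 stood above every other group. The difference from young wild type was 7.37 ± 0.55 (adjusted p = 9.0e-07).

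Old daf-2 was highest for several other targets as well, though the order of the other groups was not the same for all of them. The methyltransferase gene icmt-1 (I, 4901918 to 4903264) had 0.156, 0.54 and 0.82 CPM in young wild type and 109, 148 and 102 CPM in old daf-2 (7.78 ± 0.37, adjusted p = 2.3e-08). The noncoding RNA tts-1 (X, 1504131 to 1504841), which binds ribosomes in daf-2 mutants, had 22.7, 22.8 and 34.4 CPM against 1151, 1608 and 1449 CPM (5.71 ± 0.23), and 752 to 884 CPM in old wild type. The linker histone-like gene hil-1 (V, 14949777 to 14952799) went from 5.15, 7.8 and 5.74 CPM to 107, 137 and 129 CPM (4.33 ± 0.19). The ferritin gene ftn-1, whose protein stores iron, was 6.56 ± 0.60 higher, and tps-1, a trehalose synthase gene, was 1.83 ± 0.18 higher.

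The mitochondrial superoxide dismutase gene sod-3 (X, 17092753 to 17094306), a widely used reporter of DAF-16 activity, differed in pattern. Young wild type had 7.45, 6.78 and 5.98 CPM and old daf-2 had 35.6, 84.9 and 54.2 CPM (3.12 ± 0.27, adjusted p = 2.5e-06). Young daf-2 was at 49.5 to 56.2 CPM and old wild type at 3.27 to 5.02 CPM, so sod-3 was high in both daf-2 groups and low in both wild-type groups. It overlaps lido-1 and C08A9.3 on the other strand, whose reads these libraries cannot set apart. For lido-1, young wild type had 9.27, 6 and 8.89 CPM, so the low wild-type level of sod-3 is uncertain. Old daf-2 had 6.75, 7.46 and 9 CPM of lido-1. In the same list, gpd-2, gpd-3 and spp-1 were within 2-fold and not called, sip-1 was within 2-fold though called (0.51), and mtl-2, a second metallothionein gene, was the single lower member at -3.46. Without young wild-type replicate 3 the lower members numbered 3.

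**Figure D3:**
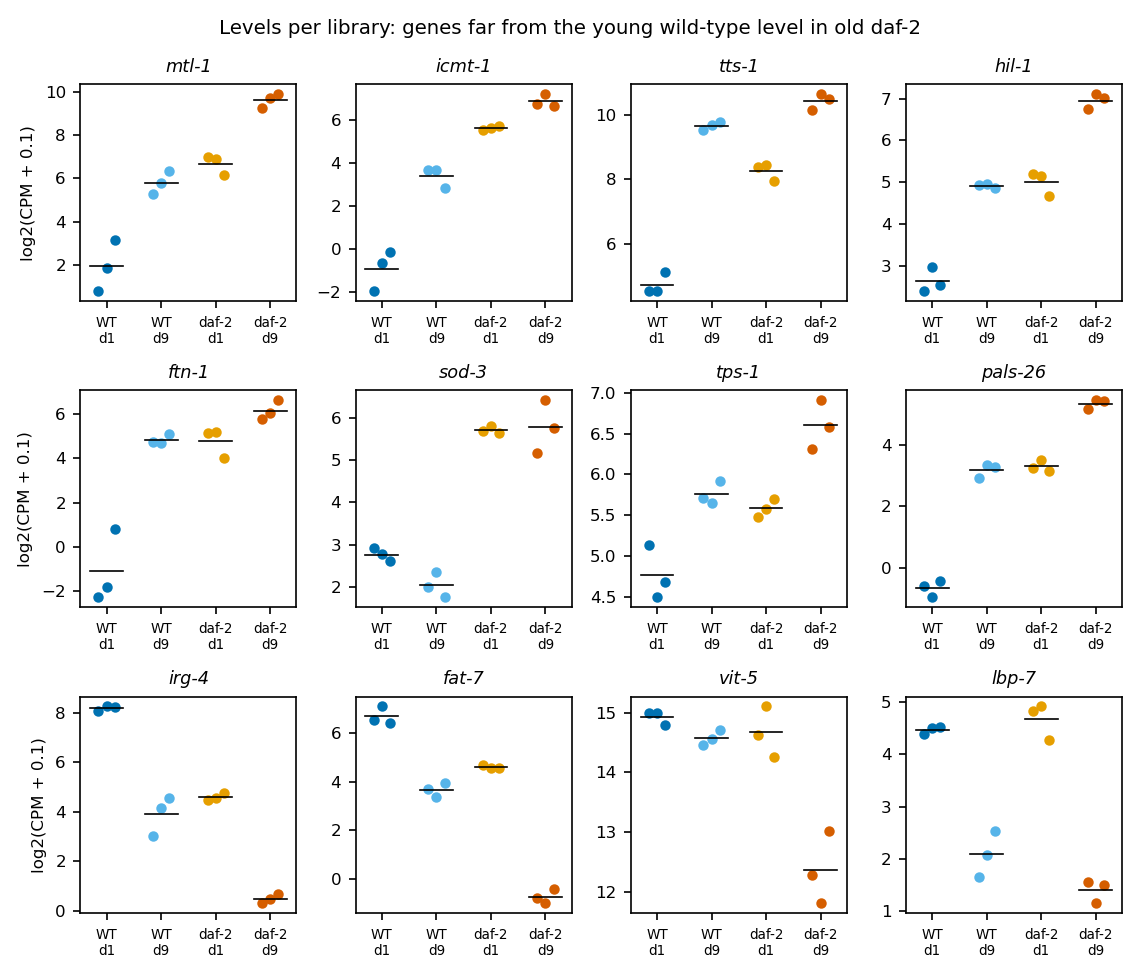
Level of 12 genes in each of the 12 libraries (vertical axis, log2 of CPM + 0.1), by group, with the group mean as a line; d1 and d9 are day 1 and day 9. Old daf-2 lies above young wild type in the first 8 genes, mtl-1 to pals-26, and below it in irg-4, fat-7, vit-5 and lbp-7, without overlap.

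Genes known to be held down in daf-2 mutants were mostly lower, again in the direction for which the literature chose them. Of 11 listed, 10 were tested, and 8 were lower and 1 higher (80% and 10%), against 24.5% and 27.8% of all genes. The list median of -3.06 was -3.79 under a filter requiring more counts and -3.84 with the 6 libraries fitted alone. The gene dod-17 (IV, 12976303 to 12978343) had 40.2, 28.8 and 25.8 CPM in young wild type and 0.4, 0.198 and 0.456 CPM in old daf-2 (-6.52 ± 0.49, adjusted p = 9.1e-07), while dod-22 had 10, 9.78 and 13.7 CPM and at most 0.0415 CPM. The intestinal peptide transporter gene pept-1 was at -3.84 ± 0.36. The member in the other direction was gcy-18, a guanylyl cyclase gene of a thermosensory neuron, at 1.57.

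Effectors of the PMK-1 pathway lay far below the young level. Of 16 listed, 14 were tested, and 11 were lower and 1 higher (clec-85, 1.14), 78.6% and 7.14% against 24.5% and 27.8% of all genes, with a median of -2.85. In wild-type ageing, a comparison that shares the young wild-type libraries, the median of the same list was -1.68. The list overlaps that of genes held down in daf-2 mutants, since dod-22 is in both and is the lowest member of each (-8.64). Results of these lists are thus not independent. The infection response gene irg-4 (IV, 12435833 to 12438236) had 275, 309 and 302 CPM in young wild type and 1.12, 1.3 and 1.51 CPM in old daf-2. Old wild type was between, at 8.05 to 23.8 CPM, and the difference of old daf-2 from young wild type was -7.79 ± 0.36 (adjusted p = 2.1e-08). The effector sysm-1 (II, 9082626 to 9083193) had 69.5, 86.5 and 56.1 CPM in young wild type and 6.03, 3.1 and 2.61 CPM in old daf-2 (-4.21 ± 0.42, adjusted p = 7.2e-06), below old wild type at 13.3 to 45.2 CPM and young daf-2 at 40.4 to 48.3 CPM. The kinase gene pmk-1 itself moved the other way by a small amount, from 21.5, 17.2 and 20.5 CPM to 26.7, 30.4 and 28.6 CPM (0.53 ± 0.12, adjusted p = 0.0029), and was within 2-fold. The count of higher effectors was 0 without young wild-type replicate 1 or 2 or without old daf-2 replicate 3, and the median without that last library was -3.83. Lower effectors numbered 9 without young wild-type replicate 3 or old daf-2 replicate 1.

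Antimicrobial gene families did not share a direction. Of 13 tested lysozyme genes, whose enzymes cut bacterial cell walls, 3 were higher and 5 lower (23.1% and 38.5%). All genes were higher in 27.8% and lower in 24.5% of cases. The invertebrate-type lysozyme ilys-5 (X, 6533490 to 6536840) had 397, 401 and 414 CPM in young wild type and 0, 0.162 and 0.145 CPM in old daf-2. Old wild type kept 108 to 265 CPM and young daf-2 had 2.61 to 9.45 CPM, so the 4 groups did not overlap at all. The difference was -11.63 ± 0.64 (adjusted p = 8.7e-08). Its relative ilys-3 (IV, 2464456 to 2465443) was near 0.2 CPM in young wild type (0.26, 0.18 and 0.205) and at 15.9, 12.2 and 7.38 CPM in old daf-2 (5.74 ± 0.47). Old wild type was higher still, at 28.9 to 61.7 CPM. The protist-type lysozyme lys-7, a DAF-16 target, was 5.26 ± 0.26 higher, and lys-1 (V, 10277904 to 10279056) was 1.77 lower on the log2 scale, from 506, 591 and 696 CPM to 206, 92.8 and 229 CPM. Lysozyme genes together took 0.156, 0.17 and 0.218% of all counts in young wild type and 0.445, 0.448 and 0.619% in old daf-2. By exact permutation, two-sided, p was 0.1, which is as low as groups of 3 can go, and 0.15 after adjustment for the 9 classes compared.

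Saposin-like genes, which encode small lipid-binding and pore-forming peptides, split evenly, with 9 higher and 8 lower of 24 tested. These are 37.5% and 33.3%, against 27.8% and 24.5% of all genes. The gene spp-20 (V, 6557615 to 6558203) had 0.104, 0.18 and 0.41 CPM in young wild type and 122, 202 and 60 CPM in old daf-2 (8.94 ± 0.84, adjusted p = 4.3e-06). Antimicrobial peptide genes of the epidermis had 15 higher and 10 lower of 32 tested (46.9% and 31.2%), with a median of 0.76. Their highest member by difference, fipr-24 (I, 14157611 to 14158078), had 0.26, 0.24 and 0.41 CPM in young wild type and 37.3, 57.7 and 37.7 CPM in old daf-2 (7.10 ± 0.26, adjusted p = 4.6e-09). Old wild type was at 13.5 to 14.7 CPM and young daf-2 at 2.1 to 2.6 CPM. The defensin-like gene abf-2 (I, 3885631 to 3885888) went from 1.93, 5.88 and 4.92 CPM to 272, 620 and 164 CPM (6.37 ± 0.61). It overlaps C50F2.2 on the other strand, whose reads these libraries cannot set apart, and that gene was lower (-0.54). Among 118 tested C-type lectin genes, which encode carbohydrate-binding proteins often induced by infection, 27 were higher and 41 lower (22.9% and 34.7%). Of all genes from 1 to 10 CPM, where the lectin median of 3.25 CPM lies, 36.2% were higher and 14.7% lower. The lectin gene clec-209 (V, 2459637 to 2460893), one of the most certain calls, went from 532, 654 and 537 CPM to 9.55, 11.5 and 18 CPM (-5.45 ± 0.32).

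**Figure D4:**
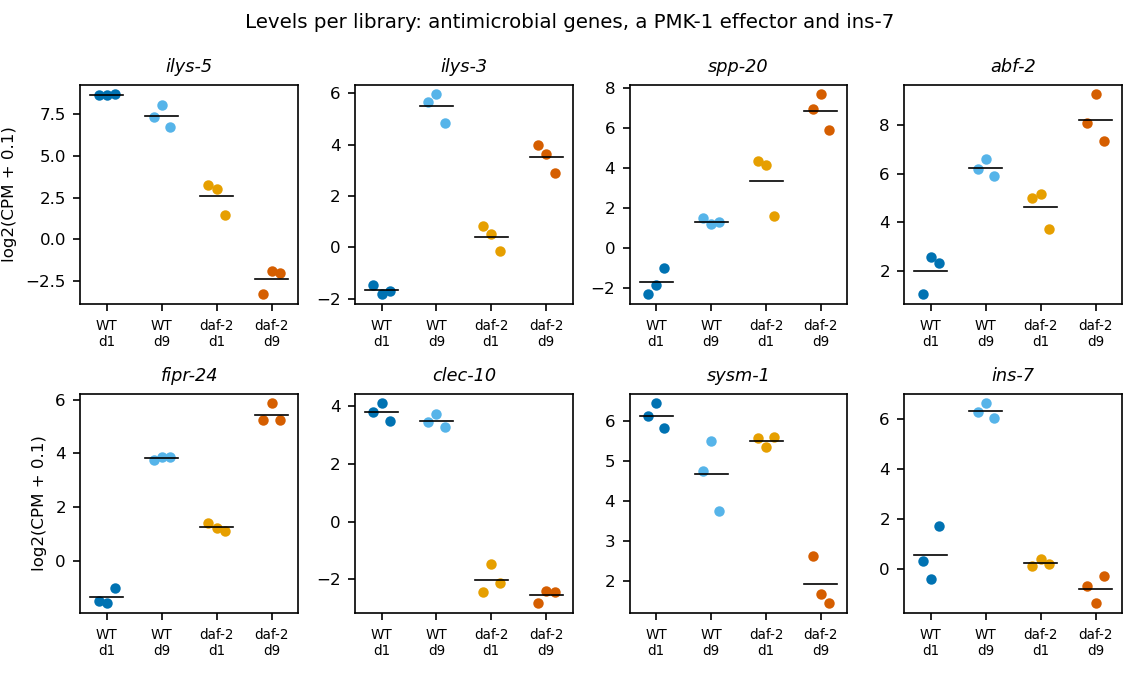
Level of 8 defence and signalling genes in each of the 12 libraries (vertical axis, log2 of CPM + 0.1), by group, with the group mean as a line. Old daf-2 is far below young wild type for ilys-5, clec-10 and sysm-1 and far above it for ilys-3, spp-20, abf-2 and fipr-24, while ins-7 is high in old wild type alone.

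The pals genes, a family tied to the response to intracellular pathogens, had 24 higher and 0 lower of 31 tested, against backgrounds of 27.8% and 24.5%, with a median of 3.28. The highest, pals-26 (III, 4375154 to 4378907), had 0.573, 0.42 and 0.649 CPM in young wild type and 35.2, 43 and 42.4 CPM in old daf-2 (6.15 ± 0.22), with 7.39 to 10.1 CPM in old wild type and 8.83 to 11.2 CPM in young daf-2. It overlaps an annotated pseudogene on the same strand that was higher as well (7.45), so reads of these cannot be told apart. The negative regulator of this response, pals-22, was within 2-fold (0.44 ± 0.21), and its partner pals-25 was 1.09 ± 0.19 higher. Members were expressed at a low level, with a median of 2.24 CPM, and under a filter requiring more counts 19 were tested, of which 14 were higher. Lower members numbered 1 at an unadjusted p under 0.05, with DESeq2, and without young wild-type replicate 1 or old daf-2 replicate 3. Genes of the fbxa F-box family, substrate adaptors for protein breakdown, were higher in 72 and lower in 10 of 130 tested cases (55.4% and 7.69%). Their median difference was 1.06 and their median level 2.94 CPM. All genes from 1 to 10 CPM were higher in 36.2% and lower in 14.7% of cases. Nuclear hormone receptor genes were higher in 67 and lower in 22 of 192 (34.9% and 11.5%), and 84 (43.8%) were within 2-fold, against 42.6% of all genes. Their median level was 4.17 CPM. Of all genes from 1 to 10 CPM, 36.2% were higher, 14.7% lower and 24% within 2-fold. The receptor gene nhr-62 (I, 9839598 to 9844809), known for a role in the lifespan response to diet, went from 4.48, 3.84 and 2.94 CPM to 34.6, 30.5 and 38.3 CPM (3.21 ± 0.17).

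Insulin-like peptide genes, the ligands of DAF-2, were mostly expressed at a low level, with a median of 1.04 CPM. Of 39 listed, 27 were tested, and 10 were higher, 2 lower and 15 not called. The higher and lower shares, 37% and 7.41%, stand against 27.8% and 24.5% of all genes. Of all genes from 1 to 10 CPM, 36.2% were higher and 14.7% lower, and of those under 1 CPM, 32% and 7.09%. The share of higher peptide genes was thus near that of other genes at their level. At this level few intervals are narrow enough to place a gene within 2-fold, and 1 peptide gene was. The gene ins-22 (III, 10026289 to 10026686) had 0.312, 0.24 and 0.137 CPM in young wild type and 16.1, 9.37 and 22.6 CPM in old daf-2 (6.16 ± 0.42, adjusted p = 3.8e-07), and its neighbour ins-23 had at most 0.12 CPM against 4.24, 2.88 and 6.11 CPM. The agonist gene ins-7 (IV, 9682011 to 9682845) is known for feedback onto DAF-2 signalling. Young wild type had 1.15, 0.66 and 3.21 CPM and old daf-2 had 0.52, 0.288 and 0.725 CPM, while old wild type stood at 79, 98.7 and 65.1 CPM and young daf-2 at 0.99, 1.21 and 1.07 CPM. The high level of old wild type was thus absent from old daf-2, whose libraries overlapped those of young wild type. The difference between them was -1.82 ± 0.48 (adjusted p = 0.0073), but -0.86 (adjusted p = 0.104) without young wild-type replicate 3. The number of lower peptide genes was 1 when young wild-type replicate 1 or 3 or old daf-2 replicate 2 was left out.

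The kinases and adaptors that carry the insulin signal were the list with the largest share shown to be within 2-fold, 21 of 24 tested against 42.6% of all genes. They were also expressed at a high level, with a median of 121 CPM, where that share is larger for all genes. Called higher were 8 and lower 4. The kinase gene akt-2 (X, 14147700 to 14152070) was among the 3 not shown to be within 2-fold, with 15.6, 12.1 and 14.3 CPM in young wild type and 37.2, 39.4 and 52 CPM in old daf-2 (1.61 ± 0.14, adjusted p = 2.5e-06), as were pdk-1 (0.85 ± 0.11, interval 0.61 to 1.10) and eak-6 (1.68 ± 0.53). The PI3 kinase gene age-1 (-0.25 ± 0.12), the phosphatase gene daf-18 (-0.08 ± 0.14) and akt-1 (0.58 ± 0.10) were within 2-fold. The counts depended on the scaling, with 13 higher and 1 lower under upper-quartile scaling and 18 and 1 with library totals only. They also depended on single libraries, with 1 lower without young wild-type replicate 1 or old daf-2 replicate 1 or 2, and 2 lower without young wild-type replicate 2 or 3.

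Genes of the transcription factors around this pathway were near the young level. The daf-16 gene (I, 10750498 to 10776703) had 125, 154 and 135 CPM in young wild type and 163, 188 and 188 CPM in old daf-2 (0.38 ± 0.11, adjusted p = 0.0134), a call lost without young wild-type replicate 1 (0.31, adjusted p = 0.0563). For hsf-1 (I, 11953507 to 11963085) the values were 88.3, 105 and 88.2 CPM and 72.5, 77.1 and 79.2 CPM, a difference of -0.30 ± 0.10 (adjusted p = 0.0273). That call was lost with upper-quartile scaling (-0.14, adjusted p = 0.183), without young wild-type replicate 2 (-0.21, adjusted p = 0.113), and without old daf-2 replicate 1 (-0.26, adjusted p = 0.0948) or 2 (-0.31, adjusted p = 0.0585), and its sign turned with library totals only (0.09). The stress factor gene skn-1 was at -0.18 ± 0.12 (adjusted p = 0.228) and turned sign with library totals only (0.20). The zip-10 gene, which encodes a bZIP factor, was at 11.3, 20.4 and 27.5 CPM in young wild type and 26.4, 12.5 and 20.3 CPM in old daf-2 (-0.01 ± 0.32, adjusted p = 0.976). Its level was 42.6 to 45.4 CPM in old wild type and 31.8 to 58.1 CPM in young daf-2, so old wild type was not alone in its higher level. Its young wild-type and old daf-2 libraries overlapped, and the sign of its difference changed between settings. It lies opposite skp-1, which had 138 to 163 CPM in young wild type, so its reads cannot be told from those of that gene. All of these were within 2-fold.

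Heat shock genes parted by class. Of 13 tested small heat shock genes, whose proteins keep unfolded proteins from clumping, 7 were higher and 3 lower (53.8% and 23.1%). All genes were higher in 27.8% and lower in 24.5% of cases. The gene hsp-16.2 (V, 1804334 to 1804957) had 2.34, 0.18 and 0.991 CPM in young wild type and 8.91, 6.83 and 8.39 CPM in old daf-2 (2.76 ± 0.58, adjusted p = 0.0018), close to 5.5 to 6.93 CPM in old wild type. The hsp-16 genes come in near-identical pairs, so their separate counts are uncertain. The large cytosolic chaperones went the other way, with 14 lower and 1 higher of 20 tested, at a median level of 293 CPM. Of all genes above 100 CPM, 40.7% were lower and 15.2% higher. The chaperonin gene cct-5 had 783, 836 and 697 CPM in young wild type and 330, 322 and 340 CPM in old daf-2 (-1.22 ± 0.11), and old wild type was at 296 to 337 CPM. The inducible hsp-70 was the exception at 4.78 ± 0.39. In the endoplasmic reticulum and mitochondria, 15 of 21 chaperone genes (71.4%) were within 2-fold, near the 73.6% of all genes above 100 CPM, and the median level of this list was 231 CPM. The reticulum chaperone gene enpl-1 was 0.93 ± 0.11 higher, from 539, 549 and 490 CPM to 913, 975 and 1118 CPM, while the mitochondrial hsp-60 was at -2.39 ± 0.22 and hsp-6 at -1.06 ± 0.16. The reticulum stress marker hsp-4 was within 2-fold (-0.02 ± 0.10).

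Genes of mitochondrial energy supply, the ribosome and the proteasome lay below the young level by modest amounts. Nuclear genes of the respiratory chain had 56 lower and 0 higher of 69, with a median of -0.61, and 43 of them were still within 2-fold. All 12 genes of the mitochondrial genome list were tested, and 11 were lower, with a median of -1.16. In wild-type ageing, which shares the young libraries, those medians were -0.62 and -1.61. The complex I subunit gene ndua-8 (III, 2529063 to 2530502) had 96.6, 100 and 83.6 CPM in young wild type and 43.1, 43.6 and 40.7 CPM in old daf-2 (-1.14 ± 0.10). Cytosolic ribosomal protein genes had 49 lower and 1 higher of 78 (median -0.48), with 54 within 2-fold, and 32 lower without young wild-type replicate 2. Proteasome genes had 27 lower and 0 higher of 33 (median -0.54), with 27 within 2-fold. The median levels of these 3 nuclear lists were 118, 1240 and 216 CPM. Of all genes above 100 CPM, 73.6% were within 2-fold, 40.7% were lower and 15.2% higher. Respiratory chain and proteasome genes had 0 higher members at an unadjusted p under 0.05 and with DESeq2 as well. These modest shifts shrank when composition was not corrected: with library totals only, 34 respiratory chain, 21 ribosomal and 11 proteasome genes were lower, and 4, 4 and 1 were higher.

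Autophagy and lysosome genes had members on both sides. Of 49 tested, 13 were higher and 24 lower (26.5% and 49%), against 27.8% and 24.5% of all genes. The sign of the list median, -0.12, turned with upper-quartile scaling (0.03) and with library totals only (0.25). Of the 24 lower members, 20 carry vha symbols, which name subunits of the vacuolar proton pump. All 20 vha genes tested were lower, so the 13 higher members all lie outside that family. The vha genes were counted after their values were seen. One of them is vha-12 (X, 4191094 to 4193144), with 347, 350 and 295 CPM in young wild type and 103, 93.6 and 117 CPM in old daf-2 (-1.66 ± 0.11). The autophagy receptor gene sqst-1 was 2.80 ± 0.12 higher. The ubiquitin-like lgg-1, a mark of autophagosomes, was 0.60 ± 0.13 higher and within 2-fold. Intestinal protease genes had 13 lower and 4 higher of 21 (61.9% and 19%). Among them, asp-14 (X, 6444185 to 6446664) went from 425, 576 and 431 CPM to 8.51, 3.73 and 11.5 CPM (-5.92 ± 0.50), and cpr-2 went in the other direction.

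Yolk genes took a smaller share of counts in old daf-2. The 6 vitellogenin genes, which encode the lipid carriers that feed oocytes, took 13, 10.4 and 11% of counts in young wild type and 4.19, 2.67 and 6.06% in old daf-2. The groups did not overlap (exact two-sided permutation p = 0.1, 0.15 adjusted). All 6 were lower by the fit, with a median of -3.85. The largest difference was that of vit-3 (X, 3567355 to 3572549), at 18030, 15890 and 13400 CPM in young wild type and 181, 39.8 and 157 CPM in old daf-2 (-6.97 ± 0.51, adjusted p = 7.4e-07), with 204 to 219 CPM in old wild type. For vit-5 (X, 3403471 to 3408603), old daf-2 at 4980, 3569 and 8325 CPM stood apart from all other groups, since young wild type had 28500 to 32760 CPM and old wild type 22640 to 26740 CPM (-2.47 ± 0.31). Smaller differences were found for vit-2 (-1.03 ± 0.33, adjusted p = 0.0198) and vit-6 (-1.07 ± 0.32, adjusted p = 0.0145). They were lost without old daf-2 replicate 1 (-0.95, adjusted p = 0.0706, and -1.02, adjusted p = 0.0509) or replicate 2 (-0.76, adjusted p = 0.0772, and -0.80, adjusted p = 0.0557), and vit-2 with library totals only (-0.67, adjusted p = 0.0517). Close similarity between vit-3, vit-4 and vit-5 makes the division of reads among them uncertain.

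Lipid enzymes were mixed. Of 22 tested genes of fatty acid synthesis, 12 were lower and 5 higher (54.5% and 22.7%), at a median level of 151 CPM. Of all genes above 100 CPM, 40.7% were lower and 15.2% higher. The stearoyl-CoA desaturase gene fat-7 (V, 7151353 to 7153146) had 93.8, 137 and 84.7 CPM in young wild type and 0.48, 0.397 and 0.643 CPM in old daf-2 (-7.68 ± 0.27, adjusted p = 3.4e-09). It was lower there than in old wild type (10.2 to 15.5 CPM) and young daf-2 (23.5 to 26 CPM). Its close relative fat-6 was within 2-fold (0.11 ± 0.21), and the palmitate desaturase gene fat-5 was 1.67 ± 0.15 higher. Lipid breakdown genes had 21 lower and 10 higher of 44 (47.7% and 22.7%), and lipid-binding genes 7 lower and 5 higher of 17 (41.2% and 29.4%). Of all genes from 10 to 100 CPM, where the median levels of both lists lie, 35.4% were lower and 23.3% higher. The median differences of these lists, -0.34 and -0.20, turned sign with library totals only (0.03 and 0.18). The peroxisomal acyl-CoA oxidase gene acox-1.2 went from 30.3, 25.9 and 25.5 CPM to 1.6, 1.1 and 1.64 CPM (-4.24 ± 0.22). The fatty acid-binding gene lbp-7 went from 20.9, 22.6 and 22.9 CPM to 2.84, 2.11 and 2.74 CPM (-3.12 ± 0.24), while far-7 was 3.83 ± 0.26 higher. The 6 pud genes, named for proteins more abundant in daf-2 mutants, were all lower here, with pud-3 (V, 2324634 to 2325152) at 348, 467 and 288 CPM in young wild type and 0.12, 0.126 and 0.269 CPM in old daf-2 (-10.97 ± 0.42). Several pud genes are near-identical copies, and 2 identifiers share the symbol pud-2.2.

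Genes for trehalose, the glyoxylate cycle and gluconeogenesis, routes known to be favoured in daf-2 animals, had 7 higher and 6 lower of 18 (38.9% and 33.3%). The median of -0.30 turned to 0.08 with library totals only. Antioxidant genes had 14 higher and 13 lower of 33 (42.4% and 39.4%). Of all genes, 27.8% were higher and 24.5% lower. The catalase genes ctl-1 (2.17 ± 0.21) and ctl-2 (1.51 ± 0.18) were higher, and the main superoxide dismutase genes sod-1 (-0.43 ± 0.08) and sod-2 (-0.38 ± 0.09) were slightly lower and within 2-fold. Detoxification families also had members on both sides. Glutathione S-transferases had 7 higher and 16 lower of 37 (18.9% and 43.2%). The counts were 12 and 24 of 63 UDP-glycosyltransferases (19% and 38.1%) and 17 and 11 of 41 cytochrome P450 genes (41.5% and 26.8%). These 3 lists had median levels of 6.09, 7.74 and 7.41 CPM. Of all genes from 1 to 10 CPM, 36.2% were higher and 14.7% lower. The medians of the transferase families, -0.20 and -0.23, turned sign with library totals only (0.18 and 0.15). The gene gst-38 had 65.4, 76 and 39.8 CPM in young wild type and 2.52, 2.52 and 2.45 CPM in old daf-2 (-4.59 ± 0.25), near 2.71 to 3.02 CPM in old wild type. In the opposite direction, cyp-34A9 went from 9.16, 5.58 and 2.56 CPM to 59.8, 84.5 and 84.2 CPM (3.75 ± 0.34).

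Cuticle collagen and body wall muscle genes were mostly lower than in young wild type. Cuticle collagen genes took 3.24, 2.24 and 2.58% of counts in young wild type and 0.376, 0.197 and 0.29% in old daf-2 (exact two-sided permutation p = 0.1, 0.15 adjusted). Of 175 listed, 122 were tested, and 66 were lower, 17 higher and 4 within 2-fold. These are 54.1%, 13.9% and 3.28%, against 24.5%, 27.8% and 42.6% of all genes. The median of the list was -1.69. That median was -0.90 without young wild-type replicate 1 and -2.86 under a filter requiring more counts, which left 66 genes tested. The collagen gene col-93 (III, 10984552 to 10985609) had 1672, 1208 and 1289 CPM in young wild type and 0.32, 0.0901 and 0.0622 CPM in old daf-2 (-13.37 ± 0.47). Old wild type was at 0.88 to 1.23 CPM and young daf-2 at 1142 to 2126 CPM. Moulting and epidermis genes had 11 lower and 8 higher of 43 (25.6% and 18.6%). Their median of -0.19 turned sign with library totals only (0.16) and without young wild-type replicate 1 (0.24). Body wall muscle genes had 21 lower and 0 higher of 28 (75% and 0%), at a median level of 135 CPM. Of all genes above 100 CPM, 40.7% were lower and 15.2% higher. Higher muscle genes were also 0 at an unadjusted p under 0.05 and with DESeq2, and 1 without young wild-type replicate 1. The median of the muscle list was -1.45, and -1.47 in wild-type ageing, which shares the young libraries. The troponin T gene tnt-2 had 273, 275 and 143 CPM in young wild type and 10.8, 6.08 and 10.3 CPM in old daf-2 (-4.67 ± 0.29). Pharyngeal genes had 5 lower and 1 higher of 14 (35.7% and 7.14%). Between 1 and 3 were lower without young wild-type replicate 1 or 3 or old daf-2 replicate 2 or 3.

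Intestinal marker genes had 9 lower and 2 higher of 13 tested (69.2% and 15.4%), against 24.5% and 27.8% of all genes, with a median of -2.15. The actin gene of the brush border, act-5 (III, 13604412 to 13606066), had 639, 798 and 558 CPM in young wild type and 92.1, 34.9 and 73.3 CPM in old daf-2 (-3.32 ± 0.30). The genes for the factors that define the tissue did not move with these: elt-2 was at 21, 22 and 20.8 CPM and 20, 18.7 and 25.3 CPM (0.01 ± 0.16), and elt-7 was within 2-fold as well (0.07 ± 0.26). Neuronal genes had 9 higher and 4 lower of 28 (32.1% and 14.3%, and 2 lower without young wild-type replicate 1). Among them, unc-13, a synaptic vesicle priming gene, went from 8.12, 5.1 and 7.28 CPM to 25.5, 13.4 and 25.8 CPM (1.65 ± 0.24). Neuropeptide genes had 23 higher and 8 lower of 80 (28.8% and 10%), against 27.8% and 24.5% of all genes. The neuronal and neuropeptide lists had median levels of 4.87 and 2.43 CPM. Of all genes from 1 to 10 CPM, 36.2% were higher and 14.7% lower. Whether the share of each tissue in the RNA moved with the other results was not tested.

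Oocyte and germline genes were mostly lower by modest amounts. Of 53 tested, 30 were lower and 3 higher, 56.6% and 5.66% against 24.5% and 27.8% of all genes. Of all genes above 100 CPM, 40.7% were lower and 15.2% higher. The median of the germline list was -0.40, and -0.40 as well in wild-type ageing, which shares the young libraries. Within 2-fold were 39 (73.6%), the same as the 73.6% of all genes above 100 CPM, and the median level of the list was 226 CPM. These genes took 2.23, 2.56 and 2.54% of counts in young wild type and 2.39, 2.49 and 2.55% in old daf-2, with overlapping libraries (exact two-sided permutation p = 0.9). When vitellogenin counts were left out of the totals, the difference in share turned to -0.167 percentage points. The Notch receptor gene glp-1, which keeps germline stem cells, was at -0.02 ± 0.11, and the yolk receptor gene rme-2 was at -1.05. The number of lower genes was 19 without old daf-2 replicate 1 or with upper-quartile scaling, and 9, with 11 higher, with library totals only. Sperm genes took 0.0279, 0.0365 and 0.0395% of counts in young wild type and 0.0601, 0.0545 and 0.0338% in old daf-2, again overlapping (exact two-sided permutation p = 0.3). They had 14 higher and 5 lower of 75 (18.7% and 6.67%), against 27.8% and 24.5% of all genes. The sign of the sperm median, -0.06, turned with upper-quartile scaling (0.10), with library totals only (0.33) and without old daf-2 replicate 3 (0.28). Lower sperm genes numbered 3 without young wild-type replicate 3 and 8 without old daf-2 replicate 1. In young daf-2 against old wild type, 64 sperm genes were lower and 0 higher (0 also at an unadjusted p under 0.05 and with DESeq2), with a median of -2.63. Of all genes, 25.7% were lower and 25.5% higher in that comparison. Histone genes had 17 higher and 3 lower of 51 (33.3% and 5.88%, and 11 higher without old daf-2 replicate 2). Their median level was 1.17 CPM, and of all genes from 1 to 10 CPM 36.2% were higher and 14.7% lower.

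**Figure D5:**
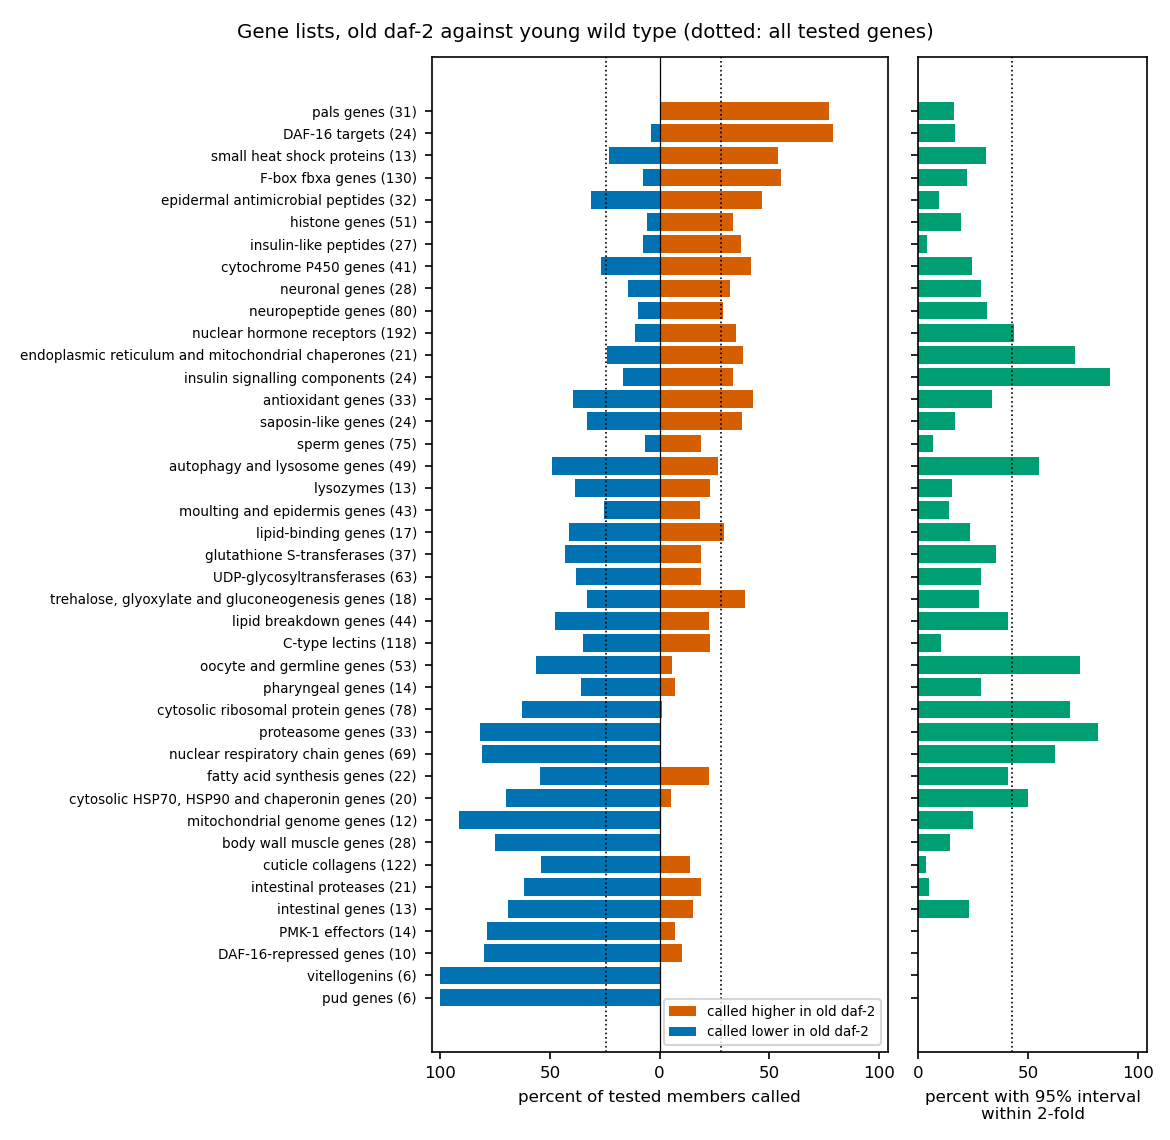
Share of tested members called higher (orange, right) or lower (blue, left) in old daf-2 against young wild type, in percent, and share within 2-fold (green), for 41 gene lists ordered by their median difference, with the number tested in brackets. Dotted lines give the shares of all 15523 genes, 27.8%, 24.5% and 42.6%; insulin signalling, proteasome and germline genes have large green bars, and vitellogenin, pud and PMK-1 effector genes have none.

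A last set holds genes that moved with age in wild type yet lay within 2-fold of young wild type in old daf-2. Ageing in wild type, which shares the young libraries with the comparison described here, called 4848 genes (31.2%) higher and 3970 (25.6%) lower. With at least 4-fold changes, no overlap of libraries and the other conditions for naming genes, 130 rose and 152 fell, of which 3 and 1 were within 2-fold in old daf-2. Their values in these 3 groups chose them and are given as a description. The lectin gene clec-166 (IV, 1249192 to 1251342) was at 4.11, 2.7 and 2.29 CPM in young wild type, 19, 17.4 and 16.3 CPM in old wild type and 3, 3.28 and 4.08 CPM in old daf-2 (0.20 ± 0.27, interval -0.38 to 0.78). The gene fip-5, of a family induced by fungal infection, (X, 10302741 to 10303143) had 5.31, 3.6 and 2.53 CPM, 12.2, 20.2 and 15.7 CPM, and 4.48, 1.87 and 3.71 CPM in the same 3 groups. In both genes the old daf-2 libraries overlapped those of young wild type. The place of clec-166 within 2-fold was lost with library totals only (0.56) and without young wild-type replicate 1 (0.48). That of fip-5 was lost without young wild-type replicate 2 (-0.23) or 3 (-0.43), without old daf-2 replicate 1 (-0.44) or 3 (-0.29), and with the 6 libraries fitted alone (-0.19).

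The other 2 genes rested on single libraries as well. The gene nspg-12 (X, 5257299 to 5258384) had 11.4, 7.74 and 9.81 CPM in young wild type, 47, 59.2 and 53.9 CPM in old wild type and 6.15, 4.38 and 14 CPM in old daf-2 (-0.23 ± 0.34), and was called lower without old daf-2 replicate 3 (-0.89, adjusted p = 0.0082). The gene ech-7 (I, 14367616 to 14369773), which encodes an enoyl-CoA hydratase-like enzyme of fat breakdown, had 48.8, 55.2 and 33.4 CPM in young wild type, 8.05, 9.96 and 9.43 CPM in old wild type and 36.6, 22 and 54.4 CPM in old daf-2 (-0.28 ± 0.26), and was called lower without that same library (-0.65, adjusted p = 0.0357). Young daf-2 had 110 to 134 CPM of ech-7, above all other groups.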

How the data were processed

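Whole animals were measured by RNA-seq in 4 groups of 3 libraries, which the labels call biological repeats. The authors deposited raw counts for each gene, in whole numbers. STAR (2.7.0e), RSEM (1.3.1), DESeq2 (1.22.2) and the build WBcel235 (ce11) appear in the submitters' processing notes with no role stated. The rule for reads that fit more than 1 gene was not given in the sources used here, and values of near-identical copies are uncertain. The kit was unstranded, per the labels' protocols, which leaves reads of overlapping genes mixed. Gene names and 1-based coordinates come from the WBcel235 annotation, which held 46603 of 46778 identifiers.

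Counts were fitted with edgeR 4.0.16 in R 4.3.3 (quasi-likelihood test, TMM scaling, minimum count 10, 4 group means over 12 libraries, Benjamini-Hochberg over 15523 genes), after the scripts were tested on simulated data. SE is the size of a log2 difference over the square root of F. CPM use the TMM-scaled totals; factors ran from 0.821 to 0.911 in young wild type and from 1.059 to 1.193 in old daf-2. Shares of counts were compared by exact permutation with SciPy 1.17.1. No replicate pair of these groups matched within counting error (chi-square per degree of freedom 30.4 to 109.4). Alternatives used other scalings, DESeq2 1.42.0, other filters, a replicate block and fewer libraries. The comparison, the gene lists and their members were chosen with earlier results of these data known. Genes named are the 8 largest and 8 smallest called differences among genes with a symbol, a mean of 10 CPM or more on the higher side, 10 or more counts in total on the lower side and no overlap of libraries, the genes of the last set, the most extreme genes called in both comparisons, study genes, and the most certain members of each list; other members were chosen after their values were seen. Intervals and p-values cover the spread between these libraries. Promoter and protein sequences were not used here.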

Additional observations from a re-analysis of the deposited data

How the results depend on the processing

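With library totals only, 7002 genes were higher and 1835 lower in old daf-2 than in young wild type, 826 of the latter by at least 2-fold. In the mirror comparison 2133 were higher and 6248 lower, and 4388 genes were higher in old daf-2 and lower in young daf-2, 1010 the reverse. A limit of 1.5-fold instead of 2-fold left 3061 genes within it. Without vitellogenin counts, the difference in share (percentage points) was -0.303 for mitochondrial genome genes, -0.37 for nuclear respiratory chain genes and -0.167 for germline genes, which reversed. Reversed single genes were hsf-1 (0.09) and skn-1 (0.20) with library totals only, and zip-10 (0.37 with library totals only, 0.04 with the stricter filter, 0.14 with upper-quartile scaling, and from -0.30 to 0.31 with 1 library left out). Leaving out each of the 6 libraries gave 3703 to 4209 higher and 3240 to 3650 lower genes and 6061 to 6577 within 2-fold. With the replicate block 4378 genes were higher and 3857 lower. Same-numbered libraries of the groups did not deviate together (r = 0.07, 0.06 and -0.16), so the numbers do not pair the samples. Of the other values recomputed for named genes, 1486 kept direction and call, 15 lost the call, and 14, all of the last set, were no longer shown to be within 2-fold. Genes under 1 CPM limit what can be placed, since few of their intervals are narrow enough. The cause of these changes was not tested.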
